A study of Mus musculus with 12 samples.

Results

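The genes of DNA replication and nucleotide synthesis were followed in mouse bone marrow-derived dendritic cells (BM-DCs). The set was a list of 48 gene symbols covering origin licensing, the replicative helicase, the polymerases, the clamp and its loader, deoxynucleotide supply, chromatin replication, E2F transcription factors and associated repair. All 48 symbols stood on 1 row each among the 53465 genes listed, of which 26760 had at least 1 read and 14324 were tested. All 48 members passed the filter on low values, which asked that some group average 10 or more normalized counts. A normalized count is a number of reads per gene divided by a scaling factor of its library.

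A cell copies its genome once per division. The origin recognition complex, Cdc6 and Cdt1 load the ring-shaped MCM helicase on DNA before S phase, Cdc45 and the GINS complex then switch it on, and polymerases held by the PCNA clamp copy both strands from deoxynucleotides that ribonucleotide reductase and thymidylate enzymes supply. Many of these genes are transcribed at the G1 to S transition by E2F factors, which the retinoblastoma protein family restrains, and they fall silent when cells leave the cycle. BM-DCs are grown from dividing marrow precursors with the cytokine GM-CSF, and they largely stop dividing as they mature.

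The study asked whether oligomers of amyloid-beta, the Aβ1-42 peptide that accumulates in Alzheimer's disease, alter gene expression in antigen-presenting cells, with or without maturation by the bacterial product lipopolysaccharide (LPS). Marrow progenitors came from wild type C57BL/6 mice of 12 weeks, and their differentiation time is given as 9 days. The 4 groups had 3 libraries each. Aβ+LPS cells received both 0.5 µM oligomeric Aβ1-42 and LPS at 100 ng/ml for 18 h, Aβ cells the oligomers alone, LPS cells LPS alone, and Ctrl cells neither. The oligomers were added on day 8, before LPS, for 4 days in total, so exposure to Aβ was longer than exposure to LPS. When Ctrl and LPS cells were harvested relative to cells with Aβ is not given in the sources used here, so that an effect of Aβ and one of a different time in culture cannot be told apart where the harvests differed. None of the 12 libraries received a scrambled peptide, so an effect of the Aβ1-42 sequence and one of the peptide preparation cannot be told apart. The number of mice and any pooling are not given in the sources used here. Since nothing says that the 3 libraries of a group came from separate animals or cultures, p-values measure the spread between these libraries only.

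Depth was even, with 23415609 to 29690965 reads in genes per library. Over all genes tested, 33.7% were called lower and 35.1% higher in Aβ vs. Ctrl. The dendritic cell markers summed to 91347 to 95280 normalized counts in Aβ libraries, against 91662 to 93774 in Ctrl libraries. The list was mixed, with 5 of 8 markers higher and 2 lower. Ccr7 (log2(fc) = 5.52), Flt3 (3.64) and Zbtb46 (1.66) were among the higher ones, and Itgax was lower (-0.36). Cd209a was listed at 0 in every Aβ and Aβ+LPS library. It was also low in LPS libraries (4.83, 0 and 0), against 49.7, 42.3 and 29.7 in Ctrl libraries. Markers of hematopoietic progenitors, a dividing cell type, summed to 655 to 724 in Aβ libraries, against 614 to 734 in Ctrl libraries, and to 763 to 864 in Aβ+LPS libraries, against 513 to 631 in LPS libraries. Of the 5 progenitor markers tested, 4 were higher in Aβ vs. Ctrl, namely Flt3, Kit (3.43), Myb (1.93) and Gata2 (1.16), and Cd34 was lower (-4.46), while Ms4a3 was listed at 0 in all LPS and Ctrl libraries. Macrophage markers summed to 117230 to 122359 in Aβ libraries, against 84085 to 86144 in Ctrl libraries, with 6 of 8 markers lower and 2 higher, Cd14 and Adgre1. Neutrophil markers summed to 1304 to 1699 in Aβ libraries, against 674 to 1017 in Ctrl libraries, most of it from S100a8. This list was mixed too, with 2 of 5 markers tested higher and 1 lower in Aβ vs. Ctrl. In Aβ+LPS vs. LPS, 2 were higher and 3 lower, where 27.8% of all genes tested were higher and 28.3% lower. The stromal list stood at 956 to 1143 in Aβ libraries, against 21.5 to 33.2 in Ctrl libraries, nearly all of it from Dcn, while erythroid (2.22 to 13.9), mast cell and basophil (0 to 32.6), B cell (8.00 to 90.8) and T and NK cell (17.7 to 29.8) lists had these ranges over all 12 libraries. The hemoglobin genes Hba-a1 and Hbb-bs of the erythroid list were at 0 throughout, and all 5 mast cell and basophil markers were at 0 in Ctrl libraries. The part of these shifts in the changes described here was not tested.

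Promoters of the members are shown for the letters of an E2F site, because E2F factors are both members of the set and known regulators of it. Of the 48 members, 40 had a promoter of 300 bases in the RefSeq table (build GRCm38.p6, 250 bases before the start site and 50 after), 48 entries in all. Gins1, Gins2, Gins4, Gmnn, Mcm4, Pole, Prim2 and Rfc2 had none. The letters searched were TTTCCCGC, TTTCGCGC, TTTGCCGC and TTTGGCGC, on both strands, counting overlapping matches as 1. They were present in 16 of the 40 members (40.0%), against 704 of 27025 genes in the whole table (2.60%) and 474 of 10425 genes tested that had an entry (4.55%). The CCAAT box (CCAAT or its reverse complement ATTGG) was in 25 of the 40 members (62.5%), against 41.1% of all genes in the table and 42.9% of those tested. A match is a description of letters and not evidence of a bound site.

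The promoters of 4 helicase subunits with a match, of Orc1 and of E2f2 are printed with every matching base in capitals, and that of Mcm2 as a helicase subunit with no match. All run 5′ to 3′ on the strand of the gene. They lie at chr1:20820263-20820562 on the minus strand for Mcm3, chr8:75109259-75109558 on the plus strand for Mcm5, chr1:128359656-128359955 on the minus strand for Mcm6, chr5:138171834-138172133 on the minus strand for Mcm7, chr4:108579204-108579503 on the plus strand for Orc1, chr4:136172024-136172323 on the plus strand for E2f2 and chr6:88898731-88899030 on the minus strand for Mcm2.
Mcm3: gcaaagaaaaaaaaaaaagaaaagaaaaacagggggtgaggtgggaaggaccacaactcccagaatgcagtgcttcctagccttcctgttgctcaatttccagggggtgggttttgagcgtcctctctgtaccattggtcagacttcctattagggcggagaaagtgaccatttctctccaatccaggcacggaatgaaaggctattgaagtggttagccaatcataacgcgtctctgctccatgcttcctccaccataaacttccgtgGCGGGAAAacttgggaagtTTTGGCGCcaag
Mcm5: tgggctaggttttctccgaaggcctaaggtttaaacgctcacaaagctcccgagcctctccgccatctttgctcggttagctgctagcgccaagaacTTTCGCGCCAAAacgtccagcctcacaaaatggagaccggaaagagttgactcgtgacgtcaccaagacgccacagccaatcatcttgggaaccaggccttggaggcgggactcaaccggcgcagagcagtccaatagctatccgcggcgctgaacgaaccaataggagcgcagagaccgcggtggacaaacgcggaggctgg
Mcm6: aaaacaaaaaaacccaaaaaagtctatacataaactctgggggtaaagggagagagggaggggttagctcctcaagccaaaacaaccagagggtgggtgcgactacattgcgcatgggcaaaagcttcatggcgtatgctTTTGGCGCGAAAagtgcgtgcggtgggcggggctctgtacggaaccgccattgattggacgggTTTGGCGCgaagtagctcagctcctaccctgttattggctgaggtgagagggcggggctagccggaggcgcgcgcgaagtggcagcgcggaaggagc
Mcm7: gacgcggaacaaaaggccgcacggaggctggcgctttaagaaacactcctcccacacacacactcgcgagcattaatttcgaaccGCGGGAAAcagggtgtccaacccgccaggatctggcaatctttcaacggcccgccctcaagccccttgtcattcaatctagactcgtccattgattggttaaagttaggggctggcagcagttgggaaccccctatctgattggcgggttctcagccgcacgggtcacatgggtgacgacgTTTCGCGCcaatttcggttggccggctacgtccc
Orc1: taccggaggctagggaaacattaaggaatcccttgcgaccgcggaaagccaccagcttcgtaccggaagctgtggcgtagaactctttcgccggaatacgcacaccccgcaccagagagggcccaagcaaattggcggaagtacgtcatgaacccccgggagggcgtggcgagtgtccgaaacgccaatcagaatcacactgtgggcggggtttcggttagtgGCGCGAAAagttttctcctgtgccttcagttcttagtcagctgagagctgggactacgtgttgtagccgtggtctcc
E2f2: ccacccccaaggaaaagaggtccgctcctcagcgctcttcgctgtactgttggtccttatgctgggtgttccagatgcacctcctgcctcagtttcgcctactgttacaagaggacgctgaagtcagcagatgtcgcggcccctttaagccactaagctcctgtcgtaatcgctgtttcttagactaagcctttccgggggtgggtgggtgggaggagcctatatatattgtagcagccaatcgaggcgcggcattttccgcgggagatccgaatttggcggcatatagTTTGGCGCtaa
Mcm2: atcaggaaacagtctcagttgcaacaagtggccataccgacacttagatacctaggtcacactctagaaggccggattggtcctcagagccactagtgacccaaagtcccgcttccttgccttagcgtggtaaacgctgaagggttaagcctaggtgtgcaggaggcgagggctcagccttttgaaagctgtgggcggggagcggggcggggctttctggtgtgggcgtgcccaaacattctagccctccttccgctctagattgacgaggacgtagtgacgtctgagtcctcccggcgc
In Mcm5 and in the first match of Mcm6, the capitals run over 12 bases because sites on the 2 strands overlap. Mcm6, Mcm7 and Mcm3 each held 2 separate matches. Mcm7 and E2f2 have a further entry each in the table, with no match, that is not printed. Mcm2, with none of these letters in its window, was lower in Aβ vs. Ctrl, as were its 4 partners shown here (-2.46 for Mcm2, -1.90 for Mcm3, -2.91 for Mcm5, -2.70 for Mcm6 and -2.48 for Mcm7, log2(fc) in Aβ vs. Ctrl).

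In Aβ vs. Ctrl, the replication genes fell together. Of the 48 members, 46 were lower and 0 higher (limma, adjusted p under 0.05), against a background of 33.7% of all genes tested called lower and 35.1% called higher. The other tools also called 0 members higher, and 0 were higher at an unadjusted p under 0.05. The median log2(fc) of the members was -1.87, beside 0.02 over all genes tested, and 21 members had a log2(fc) below -2, beside 3.77% of all genes. Summed over the 48 members, Aβ libraries held 17760.0 to 18358 normalized counts, against 58492 to 59022 in Ctrl libraries, so 30.6% of the Ctrl level. In bulk RNA, fewer cells of a dividing type and less RNA of these genes per cell cannot be told apart. The members that did not pass were Gins3 and E2f1.

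**Figure D1:**
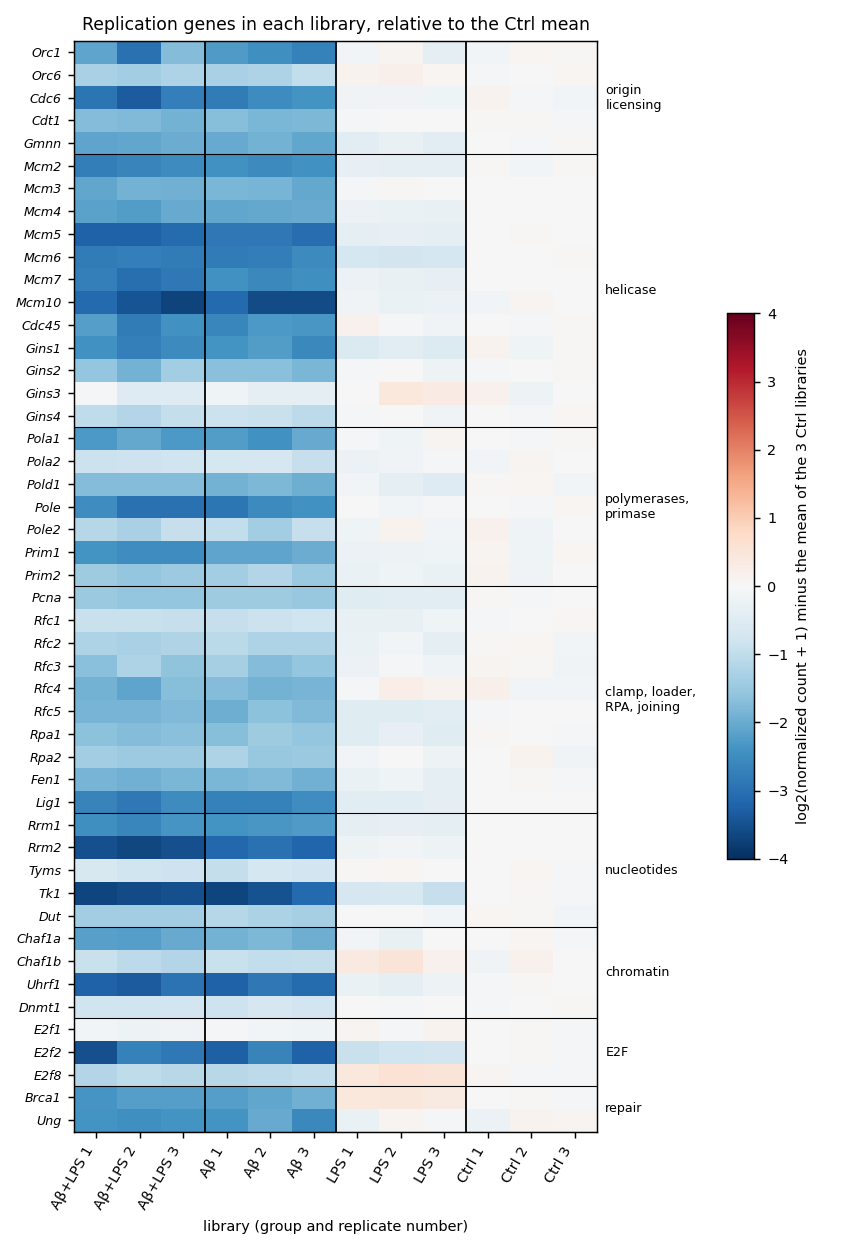
Level of each of the 48 members (rows, grouped by role) in each of the 12 libraries (columns, Aβ+LPS, Aβ, LPS and Ctrl), as log2(normalized count + 1) minus the mean of the 3 Ctrl libraries, with blue lower and red higher. The 6 libraries with Aβ are blue in nearly every row, with Gins3 and E2f1 the palest, while in LPS libraries Mcm6, Tk1 and E2f2 are pale blue and Chaf1b, E2f8 and Brca1 pale red.

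The same genes were lower with Aβ in cells that also received LPS. In Aβ+LPS vs. LPS, 48 of 48 members were lower and 0 higher, against a background of 28.3% lower and 27.8% higher, and again neither edgeR nor DESeq2 nor an unadjusted p called any higher. The median log2(fc) was -1.81, beside 0.01 over all genes tested. The summed level reached 16620.0 to 17275 normalized counts in Aβ+LPS libraries, against 49266 to 50409 in LPS libraries. The 48 calls stood in 15 of 15 alternative settings, as did 46 in Aβ vs. Ctrl.

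The licensing genes mark origins in G1. All 5 were lower in both Aβ comparisons (Aβ vs. Ctrl, Aβ+LPS vs. LPS), and their summed level in Aβ libraries was 27.3% of Ctrl. Cdc6, the ATPase that loads the helicase, had 62.5, 47.4 and 72.5 normalized counts in Aβ+LPS, 68.6, 84.2 and 91.0 in Aβ, 438, 442 and 429.9 in LPS and 537, 468 and 449 in Ctrl libraries. It thus fell to 16.8% of Ctrl with Aβ (log2(fc) = -2.57 ± 0.14 (SE), limma adjusted p = 3.4e-13), and it fell as well in Aβ+LPS vs. LPS (log2(fc) = -2.85 ± 0.14 (SE), limma adjusted p = 1.4e-13). Gmnn, which encodes geminin, the inhibitor of Cdt1 that prevents a further round of licensing, had 257, 266 and 284 normalized counts in Aβ+LPS, 276, 298 and 264 in Aβ, 823, 917 and 807 in LPS and 1126, 1077 and 1148 in Ctrl libraries. Gmnn was lower with Aβ (log2(fc) = -1.997 ± 0.07 (SE), limma adjusted p = 3.4e-16), and already lower with LPS alone (log2(fc) = -0.40 ± 0.07 (SE), limma adjusted p = 0.00012). Orc1, the largest subunit of the origin recognition complex, had few reads after Aβ, at 30.6, 26.6 and 22.2 normalized counts in Aβ libraries, against 138, 157 and 155 in Ctrl libraries (log2(fc) = -2.47 ± 0.24 (SE), limma adjusted p = 7.5e-09). Cdt1, which brings the helicase to origins, and Orc6, the smallest origin recognition subunit, were lower with log2(fc) of -1.77 and -1.17 in Aβ vs. Ctrl.

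Among the 12 helicase genes, 11 were lower with Aβ in cells without LPS and 12 in cells with it, and the summed level in Aβ libraries was 21.1% of Ctrl. Mcm6, the ring subunit with the highest mean over the 12 libraries, had 476, 499 and 478 normalized counts in Aβ+LPS, 471, 488 and 562 in Aβ, 2007, 1976 and 2007 in LPS and 3279.6, 3232 and 3366 in Ctrl libraries. Its libraries form 3 levels, with Aβ and Aβ+LPS at the bottom, LPS between and Ctrl on top. Mcm6 fell in Aβ vs. Ctrl (log2(fc) = -2.70 ± 0.06 (SE), limma adjusted p = 3.9e-20) and less so in LPS vs. Ctrl (log2(fc) = -0.72 ± 0.06 (SE), limma adjusted p = 1.6e-09). Mcm10, a factor needed to start the loaded helicase, had 76.5, 60.3 and 50 normalized counts in Aβ+LPS, 76.0, 55.4 and 55.6 in Aβ, 610.0, 559 and 572 in LPS and 621, 718 and 668 in Ctrl libraries. With 9.32% of Ctrl left in Aβ libraries, it showed the steepest fall of the role (log2(fc) = -3.42 ± 0.14 (SE), limma adjusted p = 2.7e-15).

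The 6 ring subunits Mcm2 to Mcm7 kept 13.3% (Mcm5) to 26.8% (Mcm3) of their Ctrl level in Aβ libraries, and Cdc45 and Gins1, partners of the active helicase, kept 18.7% and 18.6%. Gins4 kept 52.3% and Gins2 30.1%. Gins3, a further subunit of the same GINS complex, had 171, 125 and 124 normalized counts in Aβ+LPS, 159, 139.6 and 141 in Aβ, 182, 240.3 and 224 in LPS and 203, 157 and 181 in Ctrl libraries. The Aβ and Ctrl libraries of Gins3 overlapped (log2(fc) = -0.29 ± 0.14 (SE), limma adjusted p = 0.074), whereas Aβ+LPS and LPS libraries did not (log2(fc) = -0.63 ± 0.14 (SE), limma adjusted p = 0.00076). Without replicate 2 of Ctrl, Gins3 passed the test in Aβ vs. Ctrl as well (log2(fc) = -0.39, limma adjusted p = 0.031).

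On a scale of normalized counts per kilobase of merged exons, Mcm6 led the ring subunits in Ctrl libraries, at 706, ahead of Mcm3 (573), Mcm5 (533), Mcm4 (474), Mcm7 (367) and Mcm2 (193). In Aβ libraries Mcm3 led, at 153 per kilobase, followed by Mcm4 (115), Mcm6 (109), Mcm5 (70.7), Mcm7 (65.7) and Mcm2 (34.96). Dividing by the longest protein-coding transcript instead, a choice made after seeing the data, again put Mcm6 first in Ctrl (756) and Mcm3 first in Aβ libraries (190), with Mcm2 last in both, but exchanged some neighbours. On the same 2 scales Gins4 was the highest GINS subunit in both groups (240 per kilobase in Aβ, 459 in Ctrl libraries) and Rfc1 the highest of the 5 clamp loader subunits (175 in Aβ, 317 in Ctrl libraries per kilobase of merged exons).

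Every one of the 7 polymerase and primase genes was lower with Aβ, whether or not LPS was given. Pola1, the catalytic subunit of DNA polymerase alpha, had 206, 184 and 239.6 normalized counts in Aβ libraries, against 1000.3, 921 and 1022 in Ctrl libraries, or 21.4% of Ctrl (log2(fc) = -2.23 ± 0.10 (SE), limma adjusted p = 1e-14). Pole, the catalytic subunit of the leading-strand polymerase epsilon, had 60.2, 77.6 and 83.9 normalized counts in Aβ libraries, against 452, 438 and 484 in Ctrl libraries, or 16.1% of Ctrl (log2(fc) = -2.63 ± 0.14 (SE), limma adjusted p = 2.3e-13). Of their accessory subunits, Pola2 kept 59.3% of its Ctrl level and Pole2 46.8%. The catalytic primase subunit Prim1 kept 23.7% and its partner Prim2 39.2%. Pold1, which encodes the catalytic subunit of polymerase delta, kept 27.1%.

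The sliding clamp, its loader, the single-strand binding protein RPA and the enzymes that join Okazaki fragments gave 10 of 10 members lower in both Aβ comparisons. Pcna, the clamp itself and the member with the highest counts, had 2925, 2815 and 2805 normalized counts in Aβ+LPS, 3042, 3053 and 2862 in Aβ, 5840.4, 6102 and 6179 in LPS and 8469.6, 7941 and 8295 in Ctrl libraries. It fell in Aβ vs. Ctrl (log2(fc) = -1.46 ± 0.04 (SE), limma adjusted p = 5.4e-18) and in Aβ+LPS vs. LPS (log2(fc) = -1.08 ± 0.04 (SE), limma adjusted p = 3e-15), and no libraries of these pairs overlapped. Lig1, the ligase that seals Okazaki fragments, had 169.6, 168 and 195 normalized counts in Aβ libraries, against 1103, 1108 and 1100.4 in Ctrl libraries (log2(fc) = -2.63 ± 0.09 (SE), limma adjusted p = 4.9e-17). The remaining 8 had log2(fc) of -0.86 (Rfc1) to -1.84 (Fen1) in Aβ vs. Ctrl. Rfc1, the large loader subunit, kept 55.2% of its Ctrl level, while the small subunits Rfc2, Rfc3, Rfc4 and Rfc5 kept 43.9%, 34.5%, 27.7% and 29.2%.

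The 5 nucleotide genes held some of the steepest falls, and their summed level in Aβ libraries was 19.8% of Ctrl. Rrm1, the large subunit of ribonucleotide reductase, had 658, 693 and 731 normalized counts in Aβ libraries, against 3560.3, 3431 and 3464 in Ctrl libraries (log2(fc) = -2.33 ± 0.06 (SE), limma adjusted p = 4.9e-19). Rrm2, the small subunit that limits the enzyme in S phase, had 260.2, 239 and 261 normalized counts in Aβ+LPS, 336, 372 and 333 in Aβ, 2608, 2753 and 2568 in LPS and 3005, 2974 and 2949 in Ctrl libraries. It fell to 11.7% of Ctrl with Aβ (log2(fc) = -3.10 ± 0.06 (SE), limma adjusted p = 3.7e-21) and to 8.51% with both agents. Tk1, the cytosolic thymidine kinase of the salvage route, had 49.4, 53.4 and 55.1 normalized counts in Aβ+LPS, 49.1, 56.5 and 72.8 in Aβ, 401, 410.0 and 339 in LPS and 655, 669 and 604 in Ctrl libraries. Its log2(fc) in Aβ vs. Ctrl was the most negative of all 48 members (log2(fc) = -3.43 ± 0.13 (SE), limma adjusted p = 8.1e-16). Dut, which removes dUTP, and Tyms, which makes thymidylate, kept 42.0% and 57.4% of Ctrl.

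**Figure D2:**
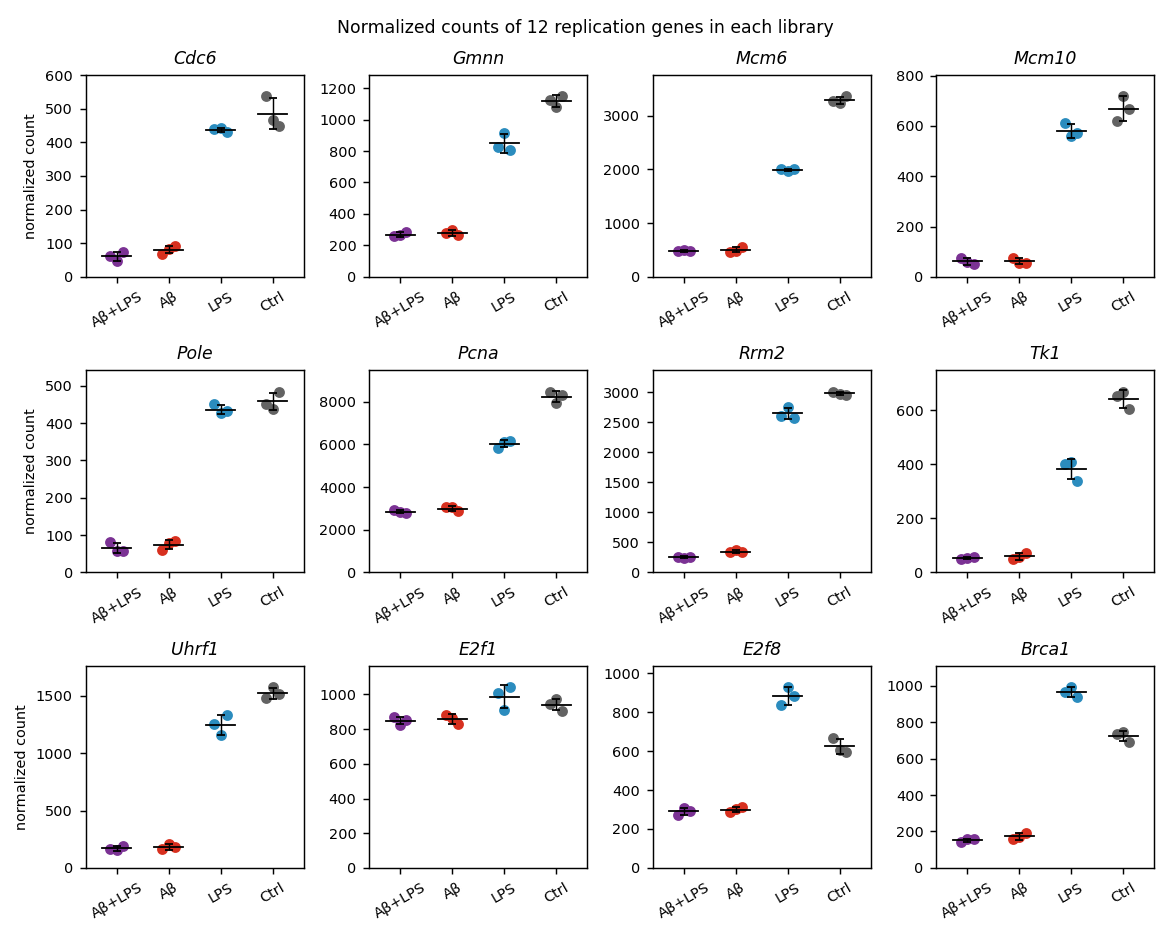
Normalized counts (vertical axis from 0, a scale of its own for each gene) of 12 members in each library, with the mean as a bar and the SD of the 3 libraries as the error line. Aβ+LPS and Aβ points lie far below LPS and Ctrl points for every gene but E2f1. LPS points lie between for Cdc6, Gmnn, Mcm6, Mcm10, Pcna, Rrm2, Tk1 and Uhrf1, and above Ctrl for E2f8 and Brca1.

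Genes that rebuild chromatin behind the fork were lower in 4 of 4 cases in both Aβ comparisons, but to unequal degrees. Uhrf1, which recognizes hemimethylated DNA and brings in the maintenance methyltransferase, had 162, 208 and 179 normalized counts in Aβ libraries, against 1479, 1574 and 1512 in Ctrl libraries (log2(fc) = -3.06 ± 0.10 (SE), limma adjusted p = 2e-17). Dnmt1, the methyltransferase itself, had 2027, 2265 and 2118 normalized counts in Aβ libraries, against 3478, 3623 and 3720.4 in Ctrl libraries (log2(fc) = -0.76 ± 0.05 (SE), limma adjusted p = 3e-12). Of the histone chaperone CAF-1, the subunit Chaf1a kept 27.2% of Ctrl in Aβ libraries, and Chaf1b 51.6%, with 363, 323 and 296 normalized counts in Aβ+LPS, 359, 342 and 344 in Aβ, 860.0, 970.0 and 757 in LPS and 613, 750.3 and 661 in Ctrl libraries. Chaf1b was lower with Aβ (log2(fc) = -0.95 ± 0.09 (SE), limma adjusted p = 9.2e-09) and higher with LPS alone (log2(fc) = 0.35 ± 0.09 (SE), limma adjusted p = 0.0039).

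The 3 E2F factors behaved differently from each other. E2f1, an activator, had 868, 825 and 854 normalized counts in Aβ+LPS, 883, 867 and 829 in Aβ, 1006, 912 and 1041 in LPS and 948, 971 and 905 in Ctrl libraries, a narrow range in which Aβ vs. Ctrl missed the threshold (log2(fc) = -0.13 ± 0.06 (SE), limma adjusted p = 0.056) and Aβ+LPS vs. LPS passed it with a small value (log2(fc) = -0.21 ± 0.06 (SE), limma adjusted p = 0.0041). Without replicate 3 of Ctrl, or with the fit restricted to the 2 groups, E2f1 passed in Aβ vs. Ctrl too (limma adjusted p = 0.044 and 0.048). E2f2, also an activator, had 61.5, 109 and 99.0 normalized counts in Aβ+LPS, 74.2, 111 and 75.8 in Aβ, 385, 415 and 431 in LPS and 711, 743 and 702 in Ctrl libraries, a drop to 12.1% of Ctrl with Aβ (log2(fc) = -3.06 ± 0.17 (SE), limma adjusted p = 3.4e-13). E2f8, an atypical member that represses E2F targets, had 273, 306 and 291 normalized counts in Aβ+LPS, 285, 300.3 and 314 in Aβ, 837, 928 and 882 in LPS and 669, 607 and 596 in Ctrl libraries. It was lower in Aβ vs. Ctrl (log2(fc) = -1.05 ± 0.08 (SE), limma adjusted p = 4.1e-11) and higher in LPS vs. Ctrl (log2(fc) = 0.50 ± 0.08 (SE), limma adjusted p = 1.1e-05).

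Brca1, which acts in homologous recombination and at stalled forks, had 139.9, 156 and 157 normalized counts in Aβ+LPS, 157, 171 and 191 in Aβ, 967, 992 and 937 in LPS and 738, 745 and 693 in Ctrl libraries. LPS libraries were thus highest, Ctrl libraries next, and Aβ and Aβ+LPS libraries lowest, overlapping each other. It fell in Aβ vs. Ctrl (log2(fc) = -2.07 ± 0.08 (SE), limma adjusted p = 2.3e-15) and more in Aβ+LPS vs. LPS (log2(fc) = -2.67 ± 0.08 (SE), limma adjusted p = 9.1e-17), and rose in LPS vs. Ctrl (log2(fc) = 0.41 ± 0.08 (SE), limma adjusted p = 0.00038). Ung, the glycosylase that removes uracil from DNA, had 37.1, 47.6 and 32.4 normalized counts in Aβ libraries, against 166, 217 and 212 in Ctrl libraries (log2(fc) = -2.32 ± 0.17 (SE), limma adjusted p = 6.2e-11).

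The set differed from Ctrl far less with LPS alone than with Aβ. In LPS vs. Ctrl, 20 members were lower and 3 higher, against a background of 22.5% lower and 23.8% higher among all genes tested. The median log2(fc) was -0.16, beside 0.0045 over all genes, and no member reached a log2(fc) of 1 in either direction. The lower members came from the clamp and joining genes (7 of 10), the helicase (6 of 12), the nucleotide genes (3 of 5), and 1 each from licensing (Gmnn), polymerases (Pold1), chromatin (Uhrf1) and E2F factors (E2f2). The largest falls were in E2f2 (-0.81), Tk1 (-0.75), Mcm6 (-0.72) and Gins1 (-0.51), and the members that rose were E2f8 (0.50), Brca1 (0.41) and Chaf1b (0.35). Scaling by library totals moved the median of all genes by 0.11 and left 15 members lower and 6 higher, the added ones being E2f1, Gins3 and Orc6. The calls of 15 lower members and of E2f8, Brca1 and Chaf1b were the same in 15 of 15 alternatives.

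**Figure D3:**
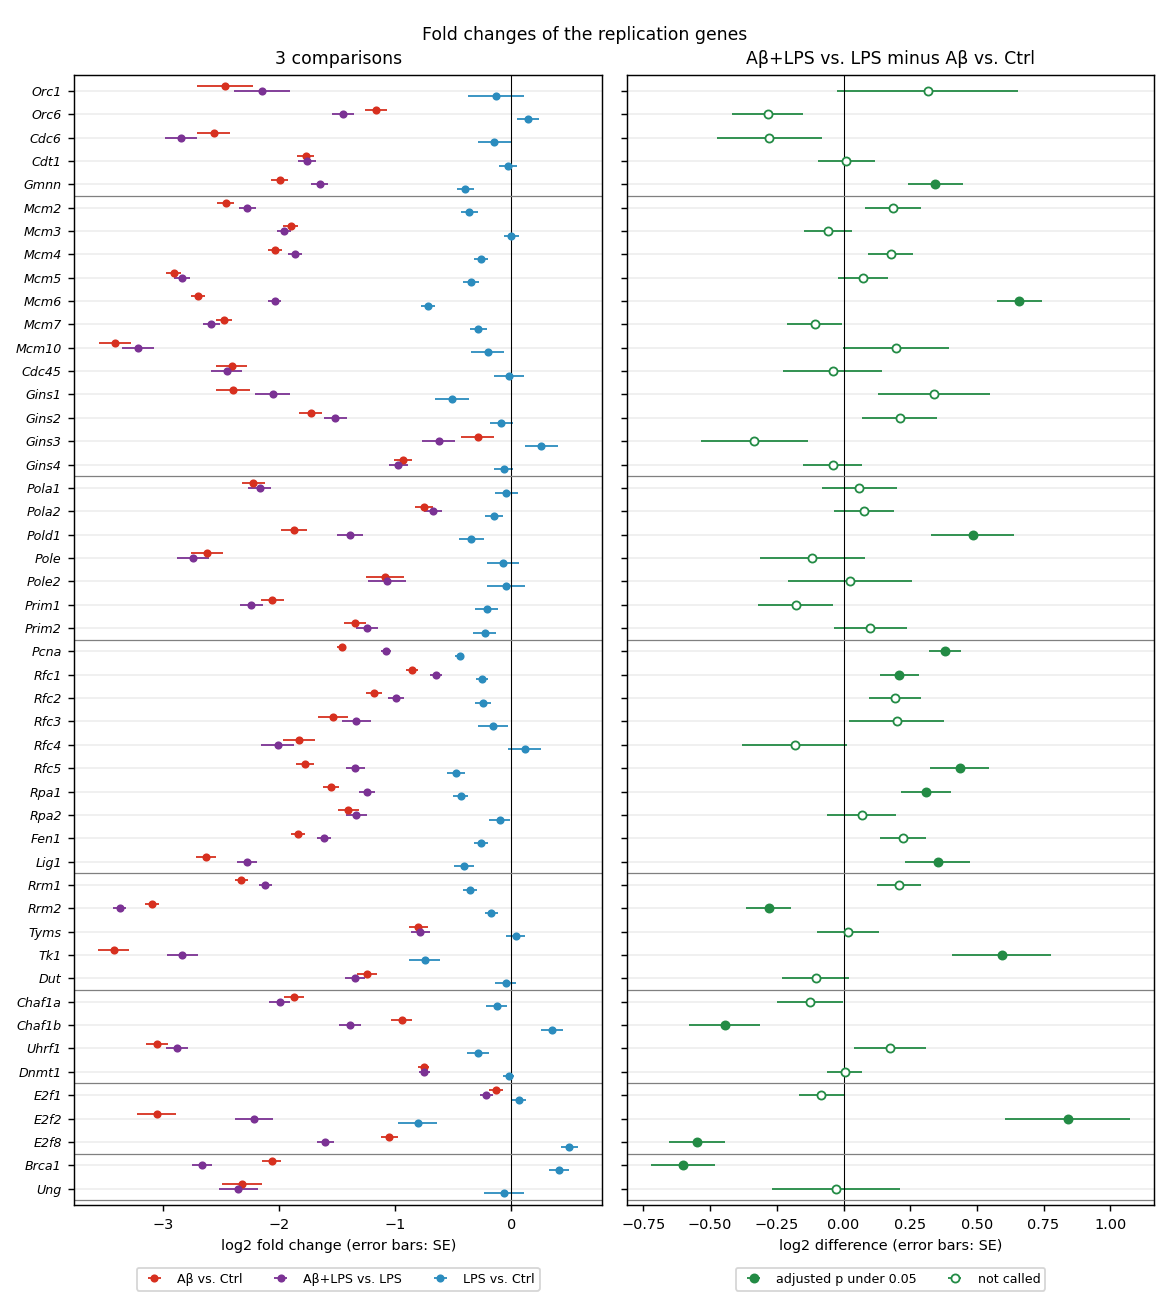
Left, log2(fc) of each member in Aβ vs. Ctrl, Aβ+LPS vs. LPS and LPS vs. Ctrl, with SE as error bars. Right, the difference between the effect of Aβ with LPS and without it, filled where the adjusted p is under 0.05. LPS points stay within 1 of 0 while Aβ points reach -3.43, and the right panel runs from -0.60 for Brca1 to 0.84 for E2f2.

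Whether the effect of Aβ differed in the presence of LPS was tested with the interaction, the log2(fc) of Aβ+LPS vs. LPS minus that of Aβ vs. Ctrl. It was positive in 10 members and negative in 4, against a background of 15.2% positive and 16.6% negative over all genes tested. Calls in either direction were thus about as common over all genes. A positive value here means a smaller fall in LPS-treated cells. It was largest in E2f2 (log2(fc) = 0.84 ± 0.23 (SE), limma adjusted p = 0.0086), Mcm6 (log2(fc) = 0.66 ± 0.08 (SE), limma adjusted p = 2.3e-06) and Tk1 (log2(fc) = 0.59 ± 0.19 (SE), limma adjusted p = 0.019), followed by Pold1 (0.48), Rfc5 (0.43), Pcna (0.38), Lig1 (0.35), Gmnn (0.34), Rpa1 (0.31) and Rfc1 (0.21). All 10 were also among those lower in LPS vs. Ctrl, and both values use the same LPS and Ctrl libraries. Negative values, a larger fall in LPS-treated cells, were found in Brca1 (log2(fc) = -0.60 ± 0.12 (SE), limma adjusted p = 0.00047), E2f8 (log2(fc) = -0.55 ± 0.11 (SE), limma adjusted p = 0.00037), Chaf1b (-0.45) and Rrm2 (-0.28). Brca1, E2f8 and Chaf1b were also the members higher in LPS vs. Ctrl, again from the same libraries, while Rrm2 was lower there. None of Brca1, E2f8 and Chaf1b was called in Aβ+LPS vs. Aβ. Scaling by library totals moved the median of all genes by -0.12 and left 4 positive members and 5 negative ones, and without replicate 1 of Aβ 6 were positive. E2f2, Mcm6, Pcna and Rfc5 stayed positive and Brca1, E2f8, Chaf1b and Rrm2 negative in 20 of 20 alternatives.

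Few members differed between cells with both agents and cells with Aβ alone. In Aβ+LPS vs. Aβ, 2 members were lower and 0 higher, against a background of 0.112% lower and 0.0279% higher, that is 16 and 4 of 14324 genes. Those members were Rrm2, with 260.2, 239 and 261 normalized counts in Aβ+LPS libraries, against 336, 372 and 333 in Aβ libraries (log2(fc) = -0.45 ± 0.06 (SE), limma adjusted p = 0.00096), and Mcm7, with 242, 199 and 223, against 302, 271 and 298 (log2(fc) = -0.39 ± 0.07 (SE), limma adjusted p = 0.021). Libraries of the 2 groups did not overlap for either gene. Rrm2 passed in 15 of 15 alternatives, whereas Mcm7 was lost without replicate 1 or 3 of Aβ, without replicate 2 or 3 of Aβ+LPS, and with only these groups in the fit (limma adjusted p = 0.057 to 0.16). At an unadjusted p under 0.05, 9 members were lower and 0 higher, beside 6.36% of all genes in either direction. edgeR and DESeq2 also gave 2 lower and 0 higher. The other 46 members had log2(fc) of -0.42 (Cdc6) to 0.18 (Orc1), which does not show that they were equal at this spread.

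Set directly against each other, Aβ cells had lower levels than LPS cells for 48 of 48 members, with 0 higher, against a background of 27.2% lower and 27.0% higher in Aβ vs. LPS. edgeR, DESeq2 and an unadjusted p called 0 higher as well. The values ran from -3.21 (Mcm10) to -0.20 (E2f1), with a median log2(fc) of -1.75, beside 0.02 over all genes. Aβ was given for longer than LPS.

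Related gene lists outside the set gave a graded picture in Aβ vs. Ctrl, where 33.7% of all genes tested were called lower and 35.1% higher. Of 20 mitosis genes, including Mki67, Top2a, Cdk1 and Plk1, 20 were lower and 0 higher, with a median log2(fc) of -3.02, below that of the replication genes. Of 34 other fork and origin genes, 26 were lower and 5 higher, with a median of -0.86. Clspn, the checkpoint adaptor claspin, fell by 3.01 and Ticrr, which helps start the helicase, by 2.15 on the log2 scale, while Pold4, a small subunit of polymerase delta, rose by 0.72. Orc4 and Orc5, subunits of the origin recognition complex, rose by 0.27 and 0.32, as did Pole4 (0.23), a small subunit of polymerase epsilon, and Top1 (0.47), a topoisomerase. Among 15 other deoxynucleotide and folate genes, 11 were lower and 2 higher (median -0.93). The higher ones were the mitochondrial folate enzyme Mthfd2 (0.97) and Rrm2b (0.47), a reductase subunit that replaces Rrm2 outside S phase.

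Enzymes of de novo purine and pyrimidine synthesis, which also serve RNA, counted 14 of 17 lower, 0 higher and a median log2(fc) of -0.51 in Aβ vs. Ctrl. Of 16 Rb family and further E2F genes, 12 were lower and 4 higher (median -0.49). The atypical repressor E2f7 (-3.71), Foxm1 (-3.39) and Mybl2 (-2.54), factors of late cell cycle transcription, fell steeply. E2f5, a repressor-class factor, was higher (1.80), as were E2f4 (0.36), Lin37 (0.26) and E2f3 (0.16). With library-total scaling the median of all genes moved by 0.09 in this comparison.

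In Aβ+LPS vs. LPS, 28.3% of all genes tested were lower and 27.8% higher. There the same lists gave 20 of 20 mitosis genes lower (median -2.98) and 27 of 34 fork and origin genes lower, with 2 higher (-0.59). Of the deoxynucleotide and folate genes, 9 of 15 were lower and 3 higher (-0.68). The counts were 15 of 17 purine and pyrimidine genes lower and 0 higher (-0.48), and 10 of 16 Rb and E2F genes lower and 2 higher (-0.58). In LPS vs. Ctrl, where 22.5% of all genes tested were lower and 23.8% higher, the counts were 11 lower and 0 higher for mitosis, 8 and 5 for fork and origin genes, 7 and 1 for deoxynucleotide and folate genes, 9 and 0 for purines and pyrimidines, and 4 and 4 for Rb and E2F genes. Ticrr and Cdc7, a kinase that fires origins, were among those higher with LPS (0.65 and 0.35), beside Brca1, Chaf1b and E2f8 among the members. Pold4, higher with Aβ, had 1525, 1582 and 1390 normalized counts in LPS libraries, against 967, 1067 and 1081 in Ctrl libraries. Mthfd2 had 1602, 1463 and 1489, against 1043, 1097 and 1004. For Rrm2b the LPS and Ctrl libraries overlapped (742, 607 and 685, against 753, 647 and 724).

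**Figure D4:**
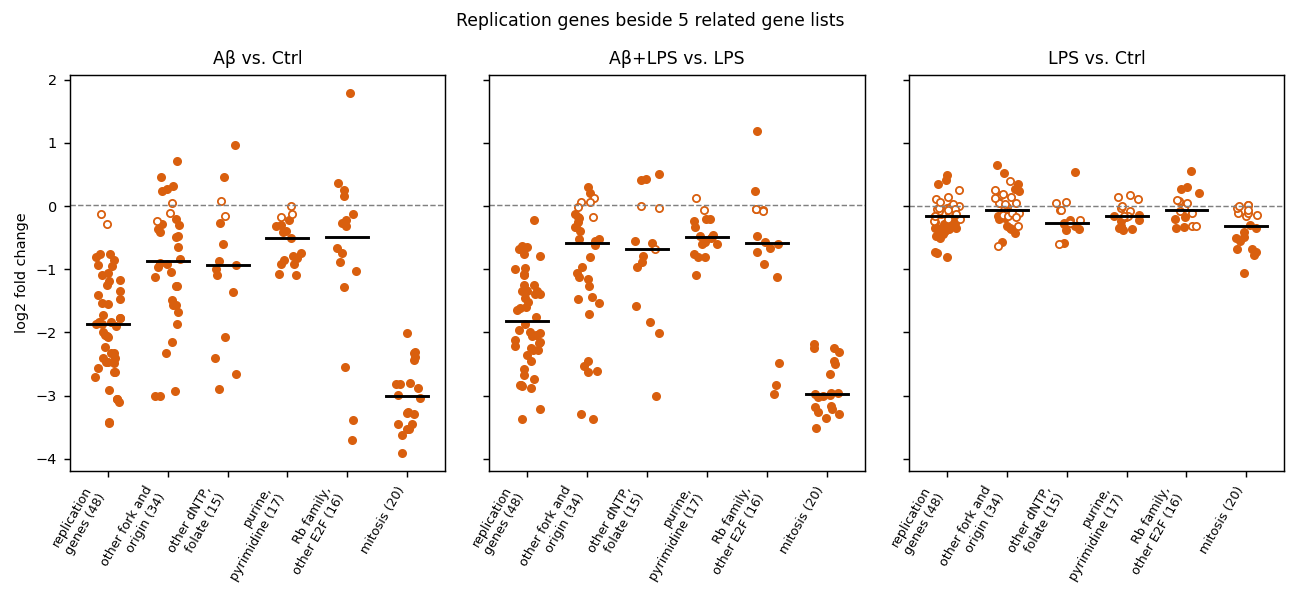
log2(fc) of each gene (points, filled where the adjusted p is under 0.05) in the replication set and in 5 related lists, in Aβ vs. Ctrl, Aβ+LPS vs. LPS and LPS vs. Ctrl, with list medians as bars and the median of all genes tested as a dashed line. With Aβ the mitosis median (-3.02) lies below that of the replication genes (-1.87), and the purine and pyrimidine median (-0.51) lies well above it.

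The E2F letters were also set beside the fold changes. The 16 members with a match had a median log2(fc) of -2.35 in Aβ vs. Ctrl and the 24 without one -1.81, with 15 and 23 called lower. Among other genes tested that had a promoter entry, 196 of 458 with a match were lower (42.8%) and 117 higher, with a median of -0.11, and 3409 of 9930 without one were lower (34.3%) and 3621 higher, with a median of 0.02. In LPS vs. Ctrl the shares lower were 22.7% with a match and 23.8% without. Genes are counted here by gene ID, of which 3 more than symbols had an entry. These are descriptions, with no test.

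Exons of 14 members overlap exons of a gene on the other strand in the annotation, and whether the counting used strand is not given in the sources used here. The pairs include Rfc4 with Eif4a2, Orc6 with Vps35, Rfc5 with Wsb2, Rfc2 with Lat2 and Mcm7 with Cops6 and Ap4m1, so that part of the counts of these members may belong to the neighbour.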

How the data were processed

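RNA from 12 libraries of BM-DCs, 3 in each of 4 groups, was sequenced as 100 bp reads from a stranded kit. According to the submitters' processing notes, reads were checked with FastQC 0.11.5, aligned to GRCm38 with HISAT2 2.1.0 and counted per gene with featureCounts 1.6.0. The deposited values were a signal that the authors made with DESeq2 in R 3.4.4, namely reads per gene divided by 1 size factor per library (normalized counts). The annotation release, the strand setting of the counting and the filters are not given in the sources used here. Deposited columns of the authors' own comparisons (log2 fold changes, standard errors, statistics, p-values) and lists of gene symbols by ontology term were not used, and 0 columns of sample values were left unmapped.

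Gene symbols and exons came from the gene annotation supplied for GRCm38, in which 99.8% of the gene IDs were found. Genes that averaged 10 or more normalized counts in some group entered a fit with limma 3.58.1 on log2(normalized count + 1) over all 12 libraries, with 4 group means and moderated variances, and Benjamini-Hochberg adjustment over the 14324 genes. Fold changes are on that scale, which understates changes of low genes, and the threshold was an adjusted p of 0.05. Multiplying by a size factor per library recovered whole reads within 0.05 for 100% of values, and edgeR 4.0.16 on these reads called 4737 genes lower and 5129 higher in Aβ vs. Ctrl. DESeq2 1.42.0, other pseudocounts and filters, library total scaling, a fit of only the groups compared, a replicate block and the omission of each library were the alternatives. Replicates of a group differed by more than the sampling noise in every pair, so none was counted as a duplicate. Scripts ran in Python 3.11.15 (pandas 2.3.3, NumPy 2.4.6, Matplotlib 3.10.9) and R 4.3.3 and were tested on simulated data.

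Library values were given, in each role, for the member with the highest mean and the one with the largest absolute fold change in Aβ vs. Ctrl, and for members called against the majority of their role. Orc1, Rrm2, Mcm7, Gins3, E2f8 and Chaf1b were added or expanded after their values were seen. Genes of other lists were named where their change was among the largest of the list or went against its majority. The members and all lists were chosen with earlier results of these data known.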

Additional observations from a re-analysis of the deposited data

Results flagged for a closer look

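By a test of the difference itself (limma interaction term, adjusted p under 0.05), the change with Aβ differed with and without LPS in 14 members. Of these, 10 had a positive and 4 a negative difference, beside 15.2% positive and 16.6% negative of all genes tested. Calls in either direction were about as common over all genes tested, so their number is not particular to the members. The fall was smaller in LPS-treated cells, by these differences in log2(fc), for E2f2 (0.84), Mcm6 (0.66), Tk1 (0.59), Pold1 (0.48), Rfc5 (0.43), Pcna (0.38), Lig1 (0.35), Gmnn (0.34), Rpa1 (0.31) and Rfc1 (0.21). It was larger in LPS-treated cells for Brca1 (-0.60), E2f8 (-0.55), Chaf1b (-0.45) and Rrm2 (-0.28). In LPS vs. Ctrl, which uses the same LPS and Ctrl libraries, the 10 positive members and Rrm2 were lower. Brca1, E2f8 and Chaf1b were higher there. Only E2f2, Mcm6, Pcna and Rfc5 among the positive ones, and all 4 negative ones, kept the call in 20 of 20 alternatives. Groups of 3 libraries were not searched for outlying libraries.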

How the results depend on the processing

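Counts of members called lower were 46 to 47 in Aβ vs. Ctrl and 48 in the comparisons of Aβ+LPS or Aβ with LPS under every alternative run, with 0 called higher. Scaling by library totals gave 6 members higher in LPS vs. Ctrl, against 3, and 4 members with a positive interaction, against 10. It moved the median log2(fc) of all genes by 0.09 in Aβ vs. Ctrl, 0.11 in LPS vs. Ctrl and -0.12 in the interaction. In Aβ+LPS vs. Aβ, 1 member was lower when only those groups entered the fit, and 1 to 2 when a library was left out. The positive interaction was called in 6 to 12 members when a library was left out, the 6 being without replicate 1 of Aβ. The cause was not tested. Over all genes, Aβ+LPS vs. Aβ gave 16 lower and 4 higher with limma, 20 and 10 with edgeR, and 30 and 17 with DESeq2. A fit of only the groups compared was not run for the interaction, which needs all 4 groups. Of 1445 values of named members under the alternatives, 1413 kept their direction and side of the threshold, 27 lost the call, 5 gained one and 0 changed sign.

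With a replicate block, the counts were 46 lower and 0 higher in Aβ vs. Ctrl, 48 and 0 in both Aβ+LPS vs. LPS and Aβ vs. LPS, 2 and 0 in Aβ+LPS vs. Aβ, 20 and 3 in LPS vs. Ctrl, and 4 negative and 11 positive for the interaction. Deviations of same-numbered libraries were nearly unrelated, with 18 correlations between -0.09 and 0.04. This cannot exclude that such libraries shared an animal or culture, since their origin is not given.

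Counting error is small at this depth for most members, but larger for those with few reads after Aβ, such as Orc1, Ung, Gins1, Tk1 and Mcm10. Lengths by longest protein-coding transcript were an alternative chosen after seeing the data. With 3 libraries a group of unstated origin, differences between animals could not be measured.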
